A study of Mus musculus with 4 samples.

Results

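NF-κB is a family of transcription factors that act as dimers of related subunits. The subunits Rela, Rel and Relb carry a transactivation domain, whereas Nfkb1 and Nfkb2 encode precursors that are processed to DNA-binding subunits. In resting cells the dimers are held in the cytoplasm by inhibitors of the IκB family, encoded here by Nfkbia, Nfkbib and Nfkbie. The kinase encoded by Ikbkb phosphorylates these inhibitors and so marks them for degradation, and the enzyme encoded by Tnfaip3 (A20) edits ubiquitin chains to restrain the signal upstream of the kinase. In macrophages the pathway drives the inflammatory response, and several of its inhibitors are themselves NF-κB target genes, which makes a feedback loop. Chromatin accessibility at these 10 genes was compared between control and esculetin-treated macrophages. The genes were chosen by name from 21464 protein-coding genes with a known strand, with earlier results of these data known.

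ATAC-seq, in which a transposase cuts open chromatin, had been performed on wild-type RAW264.7 cells, a line of mouse macrophages. All cells were given 25 ug/mL DIL-oxLDL, a dye-labelled oxidized lipoprotein, for 24 h. Control cells (n = 2) received DMSO, and treated cells (n = 2) received 40 ug/mL esculetin, a plant coumarin. No library without oxLDL was compared, and the sources used here do not say whether replicates came from separate cultures, so spread between them may be technical. The values were peaks, called by the authors in each library separately. Every peak was read that overlapped the window from 10 kb before the 5′ end of a gene to its 3′ end. It was a promoter peak if its summit lay within 1 kb of an annotated transcription start site (TSS).

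The lists held 19595 and 27833 peaks in control replicates 1 and 2, and 8677 and 12792 peaks in esculetin replicates 1 and 2. Depth, given as the genome-wide background coverage solved from each list, ranged from 4.08 to 6.51 reads and overlapped between the groups. Enrichment differed within the groups, since the median summit coverage of the 6181 regions shared by all libraries was 7.07 and 9.56 times background in the controls and 7.24 and 9.76 times in the esculetin libraries. Of 8 macrophage markers, 3 and 5 had a promoter peak in control cells and 1 and 2 after esculetin, while the share of all coding genes with one was 40.7% and 42.1% in the controls and 30.1% and 37.9% with esculetin. Spi1, the macrophage lineage factor, had one in all 4 libraries, whereas Csf1r, Adgre1 and Itgam had none in any library. A peak anywhere in the window was called at 5 and 7 of these 8 markers in the controls and at 3 in each esculetin library. None of 17 markers of kidney and other epithelium, fibroblasts or lymphocytes had a promoter peak. A peak elsewhere in the window was called at 2 and 5 of these 17 genes in the controls and at 0 and 1 with esculetin, and a part of such cells in the results below was not tested.

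To show the DNA that these promoters hold, the 250 bases before the TSS are given for 5 members with a match to the κB consensus, the decamer bound by NF-κB dimers. The sequences are those of RefSeq for GRCm38.p6 (the chromosomes of mm10), written 5′ to 3′ on the strand of the gene, with each κB match in capitals. Nfkbia lies on chr12:55492648-55492897, minus strand. Tnfaip3 lies on chr10:19015411-19015660, minus strand. Rel lies on chr11:23770970-23771219, minus strand. Nfkbie lies on chr17:45555450-45555699, plus strand. Nfkb2 lies on chr19:46304487-46304736, plus strand, before the internal TSS at which its strongest peak was found.
Nfkbia: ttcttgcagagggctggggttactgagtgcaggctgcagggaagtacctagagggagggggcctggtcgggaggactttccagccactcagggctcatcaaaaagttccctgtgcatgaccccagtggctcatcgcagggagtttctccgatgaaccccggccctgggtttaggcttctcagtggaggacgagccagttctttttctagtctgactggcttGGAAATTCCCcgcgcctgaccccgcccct
Tnfaip3: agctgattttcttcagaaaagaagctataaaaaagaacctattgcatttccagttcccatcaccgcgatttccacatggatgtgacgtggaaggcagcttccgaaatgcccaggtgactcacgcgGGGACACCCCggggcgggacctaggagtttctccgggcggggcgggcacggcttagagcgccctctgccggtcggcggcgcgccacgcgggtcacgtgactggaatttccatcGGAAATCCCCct
Rel: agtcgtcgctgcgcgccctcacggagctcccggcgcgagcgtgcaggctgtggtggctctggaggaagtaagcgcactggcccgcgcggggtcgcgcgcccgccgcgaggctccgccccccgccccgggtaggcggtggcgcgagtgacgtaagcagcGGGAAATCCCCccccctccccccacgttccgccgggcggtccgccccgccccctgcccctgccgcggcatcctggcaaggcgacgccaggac
Nfkbie: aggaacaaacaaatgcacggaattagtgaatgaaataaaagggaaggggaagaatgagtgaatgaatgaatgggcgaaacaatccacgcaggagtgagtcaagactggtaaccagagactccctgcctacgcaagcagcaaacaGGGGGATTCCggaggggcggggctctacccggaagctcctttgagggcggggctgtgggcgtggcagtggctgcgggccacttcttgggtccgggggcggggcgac
Nfkb2: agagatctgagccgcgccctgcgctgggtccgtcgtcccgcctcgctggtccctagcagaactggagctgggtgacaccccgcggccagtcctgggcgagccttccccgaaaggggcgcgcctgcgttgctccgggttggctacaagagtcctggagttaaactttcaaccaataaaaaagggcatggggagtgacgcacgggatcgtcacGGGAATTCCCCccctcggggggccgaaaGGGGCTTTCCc

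Promoter sequence was found for 7 of the 10 members, the others being Nfkb1, Relb and Ikbkb. A κB match before at least 1 TSS was present in 5 of these 7 genes, compared with 10.8% of all 27025 genes of the table, and in 7 of their 10 windows, compared with 9.55% of all 32851 windows. Rela and Nfkbib had no match in the same stretch. The 5 windows shown held 57.6% to 77.6% G or C, compared with a median of 52.4% over all windows. A part of this composition in the share of matches was not tested. The Nfkbia match lay 29 to 20 bases before the TSS and that of Nfkbie 106 to 97 bases before it. Tnfaip3 had 2 matches, at 125 to 116 and 12 to 3 bases before the TSS. In Rel, 2 matches overlapped in all but 1 base, the first at 92 to 83 bases before the TSS. Nfkb2 had a pair that overlapped in the same way, the first at 39 to 30, and a further match at 11 to 2 bases before the TSS shown.

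The 11 κB matches were counted at every TSS with sequence, with both matches of each overlapping pair. Of them, 9, 9, 9 and 10 lay inside a called peak in control replicates 1 and 2 and esculetin replicates 1 and 2. The matches of Nfkbia, Nfkbie, Rel and Tnfaip3 lay inside a peak in all 4 libraries. The Nfkbie match lay 35 to 68 bp from the summit in all libraries. The Nfkbia match lay 148 and 77 bp from the summit of its peak in the controls and 687 and 728 bp from it with esculetin. The number of covered κB matches therefore overlapped between control and esculetin cells.

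Other motifs were searched on both strands of the 250 bases before the TSS, in all 10 windows of the 7 genes with sequence. A gene is named if any of its windows had a match, whereas the shares are of single windows. The AP-1 site TGANTCA was found in Tnfaip3, Nfkbie and Nfkb2 and in 6.75% of all windows. In Nfkb2 it lay before the TSS at 46305695, outside the stretch shown. The CCAAT box was found in Nfkb2 alone, where 33.8% of all windows held it. C/EBP (TTGCNNCAA) and CRE (TGACGTCA) sites were found in no member and in 1.74% and 1.55% of all windows. The RUNX site TGTGGT was found in Rel and in 14.0% of all windows, and the ETS site CCGGAAG in Nfkbie and in 6.91%. The GC box GGGCGG was found in the 6 of these genes other than Nfkbib and in 32.7% of all windows. In Nfkb2 it lay before the TSSs at 46305695 and 46305930, and not in the stretch shown. These are matches of letters and not measurements of binding.

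The number of open regions at the 10 genes was examined first. Their windows held 15 and 18 peaks in control cells and 10 and 13 after esculetin, so both esculetin values lay below both control values. The means were 16.5 ± 2.12 and 11.5 ± 2.12 (SD, n = 2 each), a ratio of 1.43. The whole lists differed by a ratio of 2.22, and member peaks per 10000 peaks of a list were 7.70 and 6.49 in the controls and 11.7 and 10.3 in the esculetin libraries. Promoters held 10 and 11 peaks in the controls and 9 and 11 with esculetin, and gene bodies held 4 and 7 in the controls and 1 in each esculetin library. This difference was general, since regions away from promoters were 40.4% and 54.7% of the calls over all coding gene windows in the controls and 17.4% and 25.3% with esculetin. The strongest promoter peaks of the 7 members called in all libraries had a median width of 456 and 598 bp in the controls and 543 and 704 bp with esculetin, which overlapped. Over all 5774 coding genes called in all libraries these widths were 513.5 and 523 bp and 463 and 519 bp.

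**Figure D1:**
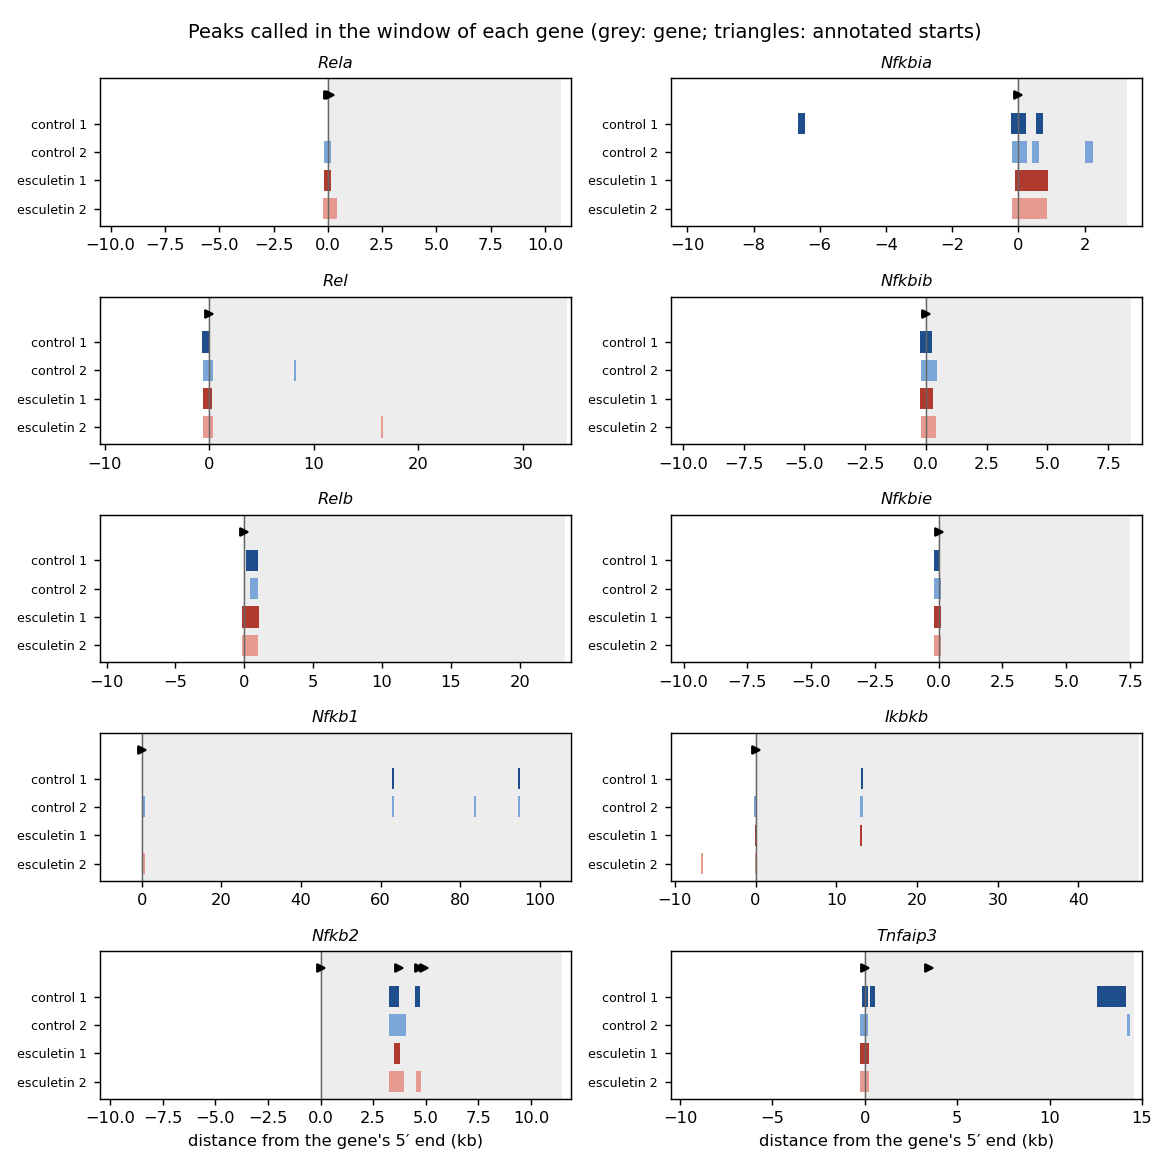
Peaks called in the window of each gene, drawn by distance from the 5′ end of the gene (kb) with 1 row per library (control blue, esculetin red, gene shaded grey, triangles at annotated TSSs). Promoter peaks recurred across libraries, while gene bodies held 4 and 7 peaks in the controls and 1 in each esculetin library, and 15% of regions away from promoters over all coding genes were called in both controls only.

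Promoter calls were mostly shared. Of the 10 members, 7 and 10 had a promoter peak in control cells and 9 and 10 after esculetin, with means of 8.5 ± 2.12 and 9.5 ± 0.707 (SD, n = 2 each). Rel, Relb, Nfkb2, Nfkbia, Nfkbib, Nfkbie and Tnfaip3 had one in all 4 libraries, a pattern held by 26.9% of all coding genes. Rela and Ikbkb had one in every library but control replicate 1, as did 0.717% of coding genes. Nfkb1 had one in control replicate 2 and esculetin replicate 2 only, as did 0.941%. No member had a promoter peak in both libraries of one group and neither of the other. Among all coding genes, 3.75% had one in both controls alone and 0.419% in both esculetin libraries alone.

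The strength of a promoter peak was given as the percentile of its −log10 p within its own list, and as the coverage at its summit divided by the genome-wide background of the library. The percentile depends on the length of the list, as a longer list adds weak peaks below a given one. Where a gene had several promoter peaks, the one with the highest −log10 p was taken. Intervals for coverage are exact Poisson 95% intervals and cover counting error only. Each library is a pool of cells, so fewer open cells and less opening per cell cannot be told apart.

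**Figure D2:**
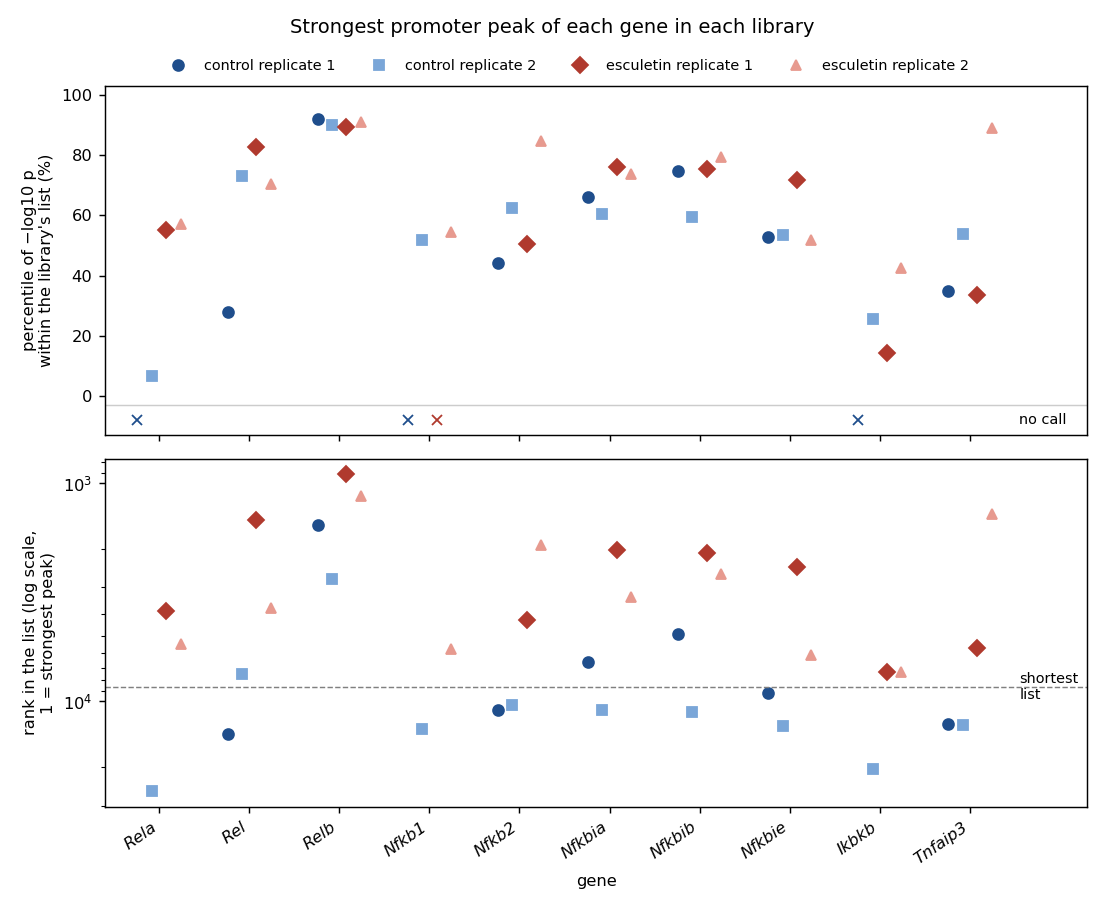
Strongest promoter peak of each gene in each library, as percentile of −log10 p within the list (upper panel, %) and as rank in the list (lower panel, log scale, 1 = strongest), with crosses at libraries without a call and a dashed line at rank 8581, the length of the shortest list on chromosomes 1 to 19, X and Y. Relb lay at 89.3% to 92.0% in all libraries, and of the control points only those of Relb, Nfkbia and Nfkbib in replicate 1 and of Relb and Rel in replicate 2 ranked above the dashed line.

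Among the transactivating subunits, Relb had the strongest promoter peak of the 10 genes by percentile in every library. Relb (chr7:19606217-19629438, minus strand) lay at percentiles 92.0 and 90.1 in the controls and at 89.3 and 91.0 with esculetin. The groups overlapped, and the difference of means was -0.85 points (exact permutation p = 0.67, two-sided). With 2 libraries a group the smallest p of this test is 0.33, so no difference could reach 0.05. Summit coverage at Relb was 9.22 and 14.95 times background in the controls and 14.08 and 15.85 times with esculetin, which also overlapped. Its summits lay inside the gene, 659 to 841 bp downstream of the TSS in all libraries, and the peak was 900 and 598 bp wide in the controls and 1212 and 1171 bp wide with esculetin.

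Rel (chr11:23736847-23770969, minus strand) encodes c-Rel, a subunit abundant in blood cells. Its promoter peak lay at percentiles 28.0 and 73.0 in the controls and at 82.8 and 70.6 with esculetin. Summit coverage was 4.45 and 9.80 times background in the controls and 9.86 and 9.02 times with esculetin. Only control replicate 1 was low, and the groups overlapped (difference of means 26.2 percentile points, exact permutation p = 0.67). Leaving out control replicate 1 gave 3.67 points, and leaving out the other control gave 48.7. Within the gene, control replicate 2 alone had a peak at 8144 bp and esculetin replicate 2 alone one at 16610 bp from the TSS, both in the lowest 7% of their lists.

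Rela (chr19:5637442-5648134, plus strand) encodes p65, the subunit of the most common dimer. No peak was called in control replicate 1. The promoter peak lay at percentile 6.70 in control replicate 2 and at 55.2 and 57.0 in the esculetin libraries. Its summit coverage was 17 reads in control replicate 2, or 4.17 times background (2.43 to 6.67), and 34 and 35 reads with esculetin, or 6.84 (4.74 to 9.56) and 8.54 times (5.95 to 11.9). The esculetin libraries therefore had the higher value where both groups had one, but the intervals overlapped. All 3 summits lay within 1 bp of each other, 25 or 26 bp before the 5′ end of the gene. A gene with 1 control value was not tested.

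The precursor gene Nfkb1 (chr3:135584655-135691969, minus strand) encodes p105, which gives p50. Its promoter peak lay at percentile 52.0 in control replicate 2 and at 54.5 in esculetin replicate 2, and was absent from the lists of the other replicate of each group. Coverage was near equal in these libraries, at 7.11 and 6.83 times background. The gene body differed in calls. A region 94.7 kb from the TSS was called in both controls, at percentiles 34.5 and 31.0, and so was a region 63 kb from the TSS, at 12.1 and 6.70. Control replicate 2 had a further peak at 83.7 kb, near the TSS of Gm46827. No peak was called in the body of Nfkb1 in either esculetin library.

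Nfkb2 (chr19:46300994-46312400, plus strand) encodes p100, which gives p52. It has 4 annotated TSSs, and no peak was called at the most upstream one. The strongest peak lay 3557 to 3635 bp inside the gene, 108 to 186 bp before an internal TSS. It was at percentiles 44.0 and 62.6 in the controls and at 50.6 and 84.8 with esculetin, so that the groups overlapped (difference of means 14.4 points, exact permutation p = 0.67). Summit coverage was 5.22 and 8.09 times background in the controls and 7.24 and 12.9 times with esculetin, so esculetin replicate 2 stood highest. Without it the difference was -2.68 points, and without the other esculetin library 31.5. A TSS of 4833438C02Rik lies within 1 kb of this summit in esculetin replicate 1. It also lies near a weaker promoter region at the next TSS, which was called in control replicate 1 and esculetin replicate 2, at percentiles 37.9 and 50.8.

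Of the IκB genes, Nfkbia (chr12:55489409-55492647, minus strand), the inhibitor gene best known for its rapid induction by NF-κB, had a higher promoter percentile in both esculetin libraries than in both controls. The percentile was 66.1 and 60.6 in the controls and 76.3 and 73.8 with esculetin, a difference of 11.6 points (exact permutation p = 0.33, the smallest possible). A TSS of Gm36634 lies within 1 kb of the strongest summit in both controls, so that signal cannot be assigned to Nfkbia alone. Coverage at the strongest summit did overlap, at 7.37 and 10.5 times background in the controls and 10.3 and 12.2 times with esculetin, but these summits lay at different sites. The shape of the open region also differed. Each control library had 2 separate promoter peaks, the strongest with its summit 124 and 53 bp downstream of the TSS and a weaker one at 590 and 563 bp, at percentiles 3.17 and 23.9 and at 4.61 and 8.09 times background. Each esculetin library had 1 peak, 996 and 1048 bp wide, with its summit at 663 and 704 bp. A strongest summit at least 400 bp further downstream in both esculetin libraries than in both controls was found in 0.502% of the 5774 coding genes called in all libraries, and among the 7 members in Nfkbia alone. Single peaks were also called in 1 library each, 6627 bp before the TSS in control replicate 1 and 2154 bp after it in control replicate 2.

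Nfkbib (chr7:28758251-28766644, minus strand) encodes IκBβ and shares its promoter with a TSS of the deacetylase gene Sirt2 within 1 kb of the summit, so the signal cannot be assigned to one of the genes. The percentile was 74.8 and 59.5 in the controls and 75.5 and 79.5 with esculetin, which did not overlap but lay within 1 point of each other at the nearest (difference of means 10.3, exact permutation p = 0.33). Summit coverage was 6.14 and 7.60 times background in the controls and 9.05 and 10.7 times with esculetin, a 1.44-fold difference by the means of log2 values. Without control replicate 2 the percentile difference was 2.68 points.

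Nfkbie (chr17:45555700-45563169, plus strand) encodes IκBε. Its promoter peak lay at percentiles 53.0 and 53.4 in the controls and at 71.7 and 51.8 with esculetin (difference of means 8.58 points, exact permutation p = 1.0). Esculetin replicate 1 was high and esculetin replicate 2 was lowest of all, and without replicate 1 the difference was -1.39. Summit coverage was 5.07 and 7.60 times background in the controls and 8.05 and 7.80 times with esculetin, a 1.28-fold difference in which the groups did not overlap. The last pair of values is close, and all 4 Poisson intervals of this gene overlapped.

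Ikbkb (chr8:22659205-22706589, minus strand), the gene of the kinase IKKβ, had the weakest promoter peak of the called members in both esculetin libraries. It was absent from control replicate 1 and lay at percentile 25.5 in control replicate 2 and at 14.2 and 42.4 with esculetin. Coverage was 5.15 times background in control replicate 2 and 4.43 and 5.85 times with esculetin, so the control value lay between the esculetin values. A gene body region 13.1 to 13.2 kb from the TSS was at percentiles 55.1 and 31.0 in the controls and at 0.44 in esculetin replicate 1, and had no call in esculetin replicate 2. A peak 6555 bp before the TSS was called in esculetin replicate 2 alone.

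Tnfaip3 (chr10:19000910-19015410, minus strand) lay at percentiles 34.7 and 53.9 in the controls and at 33.7 and 89.0 with esculetin, the widest spread within a group. The difference of means was 17.0 points (exact permutation p = 1.0), which became -10.6 without esculetin replicate 2 and 44.7 without the other esculetin library. Summit coverage was 4.45 (2.98 to 6.40) and 6.86 (4.56 to 9.92) times background in the controls, and 5.23 (3.42 to 7.67) and 13.4 (10.1 to 17.5) times with esculetin. The interval of esculetin replicate 2 lay above those of the other libraries, and the intervals of the other libraries overlapped. Both controls had a peak in the last 10% of the gene. That of control replicate 1 was 1567 bp wide at percentile 50.0, that of control replicate 2 was at 1.46, and these peaks did not overlap each other. No such peak was called with esculetin.

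**Figure D3:**
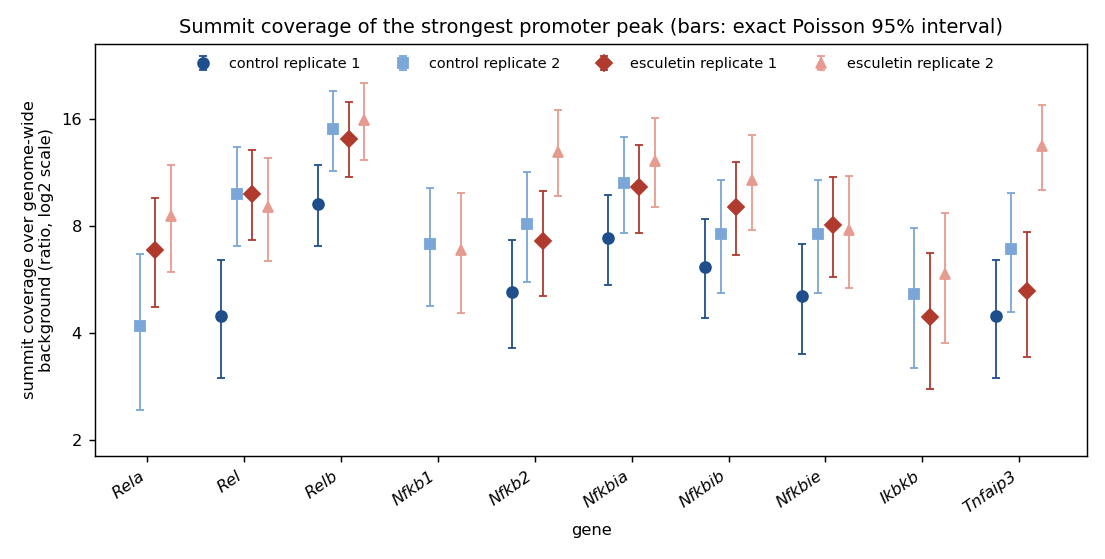
Summit coverage of the strongest promoter peak of each gene over the genome-wide background of the library (ratio, log2 scale), with exact Poisson 95% intervals for counting error (control blue, esculetin red, no point where no peak was called). Control replicate 1 was the lowest of the 4 values at 7 genes, and Tnfaip3 reached 13.4 times background in esculetin replicate 2.

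Over the 7 members called in all libraries, the median difference between esculetin and control lay above that of coding genes in general, with the most genes separated when each library was scaled to its own enrichment. For that scale, chosen after seeing the data, the log2 coverage of a promoter was given relative to the median of the regions shared by all libraries. Both esculetin libraries lay above both controls at 6 of the 7 members (Relb, Nfkb2, Nfkbia, Nfkbib, Nfkbie and Tnfaip3) and below at 0, compared with 28% and 25.2% of the 5774 coding genes called in all libraries. The single values were close for some genes. At Tnfaip3 they were -0.67 and -0.48 in the controls and -0.47 and 0.46 with esculetin, and at Nfkbie -0.48 and -0.33 compared with 0.15 and -0.32. At Nfkbib they were -0.20 and -0.33 in the controls and 0.32 and 0.14 with esculetin, and at Nfkb2 -0.44 and -0.24 compared with 0.00 and 0.41. Rel overlapped, at -0.67 and 0.04 in the controls and 0.44 and -0.11 with esculetin.

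On this scale the median difference of the 7 members was 0.48, with 7 of 7 higher with esculetin, compared with 0.02 and 51.7% for the coding genes. When each library was left out in turn it lay between 0.22 (esculetin replicate 1 left out) and 0.45 (control replicate 2 left out), with 7 of 7 higher each time. These 7 members were measured in the same 4 libraries and are not replicates of the treatment. Their promoters started weaker than those of the coding genes. Ranked among the shared regions, their median percentile in the controls was 21.4 and 33.4, compared with 54.9 and 55.2. With esculetin it was 67.7 and 60.1, compared with 53.4 and 54.8. Both sets hold only genes called in every library, so a weak control promoter was kept only if esculetin also had a call. The part of this selection in the differences was not tested.

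The other 4 measures separated fewer members. By percentile of −log10 p, both esculetin libraries lay above both controls at 2 members (Nfkbia and Nfkbib) and below at 0, compared with 14.5% and 30% of the coding genes. The median difference was 11.6 points, with 6 of 7 higher and Relb lower, while the coding genes had a median of -4.43 points with 38.8% higher. Leaving out esculetin replicate 1 gave 12.3 points with 5 of 7 higher, compared with 0.62 for the coding genes, and leaving out esculetin replicate 2 gave 8.32 points with 4 of 7 higher, compared with -8.73. By coverage over background without further scaling, 2 members lay above (Nfkbib and Nfkbie) and 0 below, compared with 18.2% and 10.7%. The median difference was then 0.51 on the log2 scale (1.43-fold), with 7 of 7 higher, compared with 0.05 (1.04-fold) and 54.8% of the coding genes. The 7 values ran from 0.34 in Nfkbia to 0.60 in Tnfaip3, all above the upper quartile of the coding genes (0.31). Control replicate 1 was the lowest library at all 7 members and decided much of this value. Without it the unscaled median was 0.09, with 5 of 7 higher, compared with -0.19 for the coding genes, and without control replicate 2 it was 0.70, compared with 0.29. Leaving out esculetin replicate 2 gave 0.26, compared with -0.14. Leaving out esculetin replicate 1 gave 0.47, compared with 0.25, the smallest gap of these alternatives.

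Ranking by another column or among fewer regions moved single genes. By percentile of the fold within the list, 2 members lay above (Rel and Nfkbia), compared with 15.4% of the coding genes, and Relb lay below, as did 25.2%. The values of Relb were 86.1 and 81.5 in the controls and 67.7 and 76.4 with esculetin, a difference of -11.8 points (exact permutation p = 0.33), whereas its scaled coverage was higher with esculetin. The median difference of the 7 members by fold was 6.26 points, compared with -2.88 for the coding genes. By percentile among the shared regions, 3 members lay above (Nfkb2, Nfkbia and Nfkbib) and 0 below, compared with 24.1% and 25.3%, and the median difference was 26.1 points, compared with -0.21. Nfkbia and Nfkbib were each above by 4 of the 5 measures, those of Nfkbia taken at summits that differ in site between the groups, and the direction at Relb depended on the measure. The 5 measures describe the same peaks in the same libraries and are not independent of each other.

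**Figure D4:**
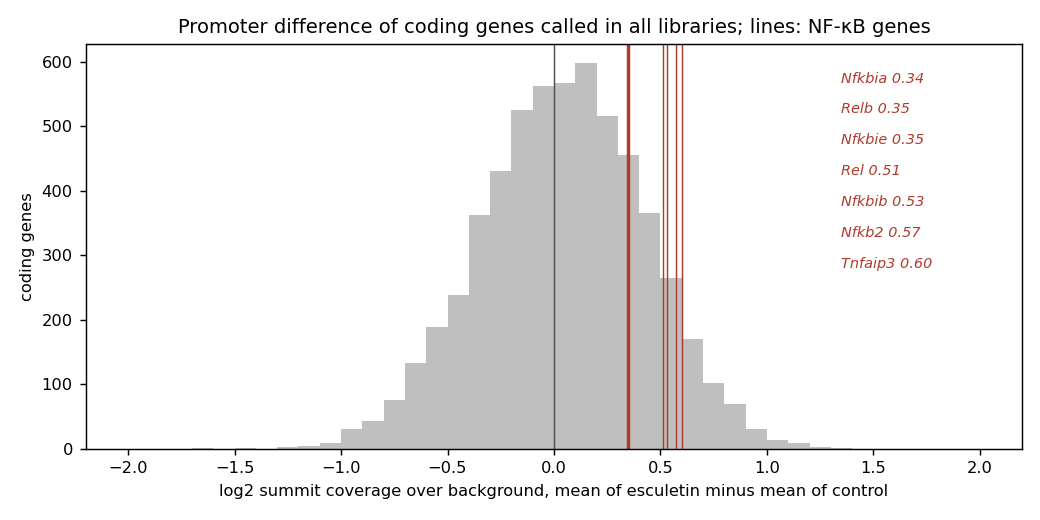
Histogram of the difference in log2 summit coverage over background, mean of esculetin minus mean of control libraries, over the 5774 coding genes with a promoter peak in all 4 libraries (vertical axis, number of genes). Red lines mark the 7 NF-κB genes, which lay between 0.34 and 0.60, compared with a median of 0.05 and quartiles of -0.21 and 0.31.

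Because the lists differ in length, the 8581 strongest peaks of each library were also compared. This limit is the full length of the shortest list, that of esculetin replicate 1, so it could lower counts only in the other libraries. Without it, 7 and 10 members had a promoter peak in the controls and 9 and 10 with esculetin. Within it, promoter peaks of 3 and 2 members remained in the controls (30% and 20%). With esculetin those of 9 and 10 members remained (90% and 100%). The share of all coding genes was 27.7% and 19.4% in the controls and 30.1% and 32.6% with esculetin. Rela, Nfkb2, Nfkbie, Ikbkb and Tnfaip3 had such a peak in both esculetin libraries and neither control, as did 4.47% of all coding genes. These were 5 of the 9 members with such a peak in both esculetin libraries, and among the coding genes with one in both, 16.6% had none in either control. No member had the reverse pattern, which 0.55% of all coding genes had. The control peak nearest to this limit among the 5 genes was that of Nfkbie in control replicate 1, at rank 9153, and the nearest esculetin peaks were those of Ikbkb, at ranks 7363 and 7308. The controls shared Relb alone within this limit, with Nfkbia and Nfkbib added in replicate 1 and Rel in replicate 2, while the esculetin libraries shared 9 members and differed by Nfkb1.

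Away from the promoters, the 10 windows held 9 gene body regions and 2 upstream regions after peaks were merged across libraries. Both controls and neither esculetin library had a call in 2 of these 11 regions, both in Nfkb1, compared with 15% of such regions over all coding gene windows. A single library had the call in 8 of the 11 regions, compared with 74.2%. No region was called in both esculetin libraries alone, compared with 0.605%. The background leaves out regions near the TSS of any gene, whereas the 11 include the Nfkb1 region at 83.7 kb, near the TSS of Gm46827. With that difference in rule, the shares in the members were near those of the background.

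Other genes of the pathway were examined by the same rule. Of 38 such genes, 30 and 29 had a promoter peak in the controls and 24 and 26 with esculetin, and 22 had one in all libraries. Promoter calls fell over all coding genes as well, from 40.7% and 42.1% of them in the controls to 30.1% and 37.9%. Both controls alone had one at Nfkbiz, which encodes a nuclear IκB-like protein (percentiles 76.9 and 34.3), at Card9, an adaptor of fungal receptors (47.4 and 60.3), and at Nkrf, a repressor of NF-κB target genes (26.5 and 25.5). Both esculetin libraries alone had one at Nfkbid, another nuclear IκB-like protein (6.25 and 60.6). These were 3 and 1 of 38 genes, against 3.75% and 0.419% of all coding genes. No library had a promoter peak at Ikbke, Bcl3, Traf1, Tnip3, Pdlim2 or Nkap. Among the 22 genes called in all libraries, the percentile was above both controls in both esculetin libraries for 4 and below for 7, near the 14.5% and 30% of all coding genes, with a median difference of -6.41 points and a median log2 coverage difference of -0.02. The median of these 22 genes was thus near the -4.43 points of all coding genes with all libraries, and its difference from the 11.6 points of the 7 members was not tested.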

How the data were processed

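ATAC-seq peak lists of 4 RAW264.7 libraries (2 control, 2 esculetin, grouped by the treatment in the labels) were read. The authors used Trim Galore for trimming, Bowtie2 for alignment to mm10, Sambamba to discard duplicate and multimapping reads, and MACS2 for peaks of each library. Its options and any shift of read ends are not given in the sources used here. The deposited lists give a score, a linear fold over background and −log10 p and q for each peak. The score and q served only for checks and alternatives. No counts were used, so the count model of the study was not run.

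Summit coverage and local background were solved from the deposited fold and −log10 p (100% of peaks gave a whole coverage within 0.05 reads), and the solver was tested on simulated data. Only chromosomes 1 to 19, X and Y were used. The depth was the genome-wide background of 4.08 to 6.51 reads, and peaks at that background needed at least 13 to 17 reads to be called. Genes and TSSs came from RefSeq tables of GRCm38.p6, with the strand of genes that have no promoter sequence copied from GENCODE by symbol, giving a strand for 98.0% of coding genes. Exons and untranslated regions were not used here.

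Differences are esculetin minus control means. For single genes a two-sided exact permutation test over the 4 libraries was run (smallest p 0.33), and counts and medians over genes were not tested. All 10 members were named, as were pathway genes with a promoter peak in both libraries of one group only. The members and lists were chosen with earlier results of these data known. Alternatives changed the list length, ranking measure, windows, TSSs and libraries. Scripts ran in Python 3.11.15 with SciPy 1.17.1, NumPy 2.4.6, pandas 2.3.3 and matplotlib 3.10.9.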

Additional observations from a re-analysis of the deposited data

How the results depend on the processing

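The difference in peaks at the 10 genes (-5) became 8 when the 8581 strongest peaks of each list were compared, which removes weak control peaks by construction, and ranged from -6.5 to -3.5 when each library was left out. The difference in members with a promoter peak (1) became 7 with equal numbers of peaks. It became -0.5 without control replicate 1 and ranged from -0.5 to 2.5 over the libraries left out. With promoters taken within 0.5 kb of a TSS it was 0. The median percentile difference (11.6 points) was 26.1 when ranked among regions called in all libraries, 6.26 when ranked by fold, and 7.47 to 12.3 when each library was left out. Of 82 alternatives for single members, 74 kept the direction and 8 did not. Relb was positive in 5 of the 8, at 13.2 points with equal numbers of peaks, 0.11 without control replicate 1 and 1.15 among shared regions, and at 0.35 and 0.32 by log2 coverage over background and relative to shared regions, the last chosen after seeing the data. When each library was left out, Relb ranged from -1.81 to 0.11, Nfkbie from -1.39 (esculetin replicate 1 left out) to 18.6, and Nfkb2 and Tnfaip3 from -2.68 and -10.6 (esculetin replicate 2 left out) to 31.5 and 44.7. The cause of these changes was not tested. A replicate block cannot move a difference of means with 2 libraries in each group (-5, 1 and 11.6 with it), and its smallest sign-flip p is 0.5. Over the shared regions the ranks of same-numbered libraries did not deviate together (correlation -0.014), although their median enrichment did (7.07 and 7.24, and 9.56 and 9.76 times background). The number was not used to pair them. The peak names inside the esculetin lists carry other numbers than the labels, so which libraries share a number is uncertain. Of the 7 regions called in all libraries, 6 were shared at 50% reciprocal overlap. Peak lists give no value where no peak was called, and 2 libraries per group cannot give a p under 0.05.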
